A study of Mus musculus with 28 samples.

Results

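RNA-seq libraries of reprogramming mouse fibroblasts were compared on day 3 of induction between cells that received the p38 inhibitor only during induction (p38i) and cells that received it only before induction (pre-p38i). The members were picked by their labels, 2 p38i and 2 pre-p38i libraries of day 3, which makes 4 of the 28 libraries in the series. Earlier results of these data were known when the members, gene lists and tests were chosen. All 28 libraries came from mouse embryonic fibroblasts (MEFs), labelled wild type, and the study describes them as primary cells from embryos that carry an Oct4-GFP reporter. In both groups Oct4, Klf4 and Sox2 (OKS) were delivered by retrovirus, day 0 was set after the infections, and the cells were kept in the chemically defined medium iCD1. The inhibitor was SB203580, a small molecule that blocks the kinases p38α and p38β. In p38i it was in the medium through induction, and in pre-p38i it was given to the MEFs and was absent from the induction medium. A control series received DMSO (2 libraries on day 3). The comparison asks how the period in which p38 was inhibited changed the RNA of the cells 3 days into induction.

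p38 MAP kinases relay stress and cytokine signals to transcription factors and to kinases that control mRNA stability. Reprogramming of fibroblasts begins with loss of mesenchymal and gain of epithelial gene expression, and endogenous pluripotency genes are switched on later. Interferons act through JAK kinases and transcription factors such as STAT2 and IRF9, and induce antiviral genes, large GTPases that attack pathogen vacuoles, and the machinery that loads peptides on MHC class I. Lysosomal genes are driven by TFEB and TFE3, which bind the CLEAR element.

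Deposited values were whole numbers that added up to between 991503 and 991942 in the day 3 libraries, so they were read as transcripts per a fixed total, already scaled for gene length. Differences are p38i minus pre-p38i on the log2(value + 1) scale, which understates the change of low genes, and adjusted p-values are limma's. Of 13230 genes tested, 5579 (42.2%) were called at an adjusted p under 0.05. In p38i 1420 genes (10.7%) were higher and 4159 (31.4%) were lower, and among those that changed by at least 2-fold 147 were higher and 941 lower. The median difference over all genes was -0.16. Quantile normalization shifted that median by 0.21, to 0.05, and turned the split into 2791 higher and 2404 lower genes (53.7% higher against 25.5% as deposited). At 2-fold or more it gave 436 higher and 582 lower, so the split by sign depends on the scaling at both limits. The 2 groups did not overlap for 63.5% of tested genes. An exact permutation test of 2 against 2 libraries cannot give a p below 0.333 and was not used. No label says that the 2 libraries of a group came from separate cultures, so the p-values rest only on the spread between libraries of a group. That spread was taken over all 14 groups of the series, and a fit of only these 2 groups called 3738 genes.

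The root mean square log2 difference between the group means was 0.662. The single p38i libraries lay 0.701 and 0.678 from the pre-p38i mean. Between the 2 single libraries of a group it was 0.384 in p38i and 0.339 in pre-p38i. Those 2 values hold more library noise than a distance between means. Measured between group means, pre-p38i lay 0.416 from DMSO day 3 and 0.406 from DMSO day 5. By the same measure p38i lay 0.497 from DMSO day 3, 0.667 from DMSO day 1 and 0.723 from DMSO day 5. The pre-p38i cells of day 3 were thus about as near to DMSO cells of day 5 as to those of day 3, and p38i cells were nearest to DMSO cells of the same day.

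**Figure D1:**
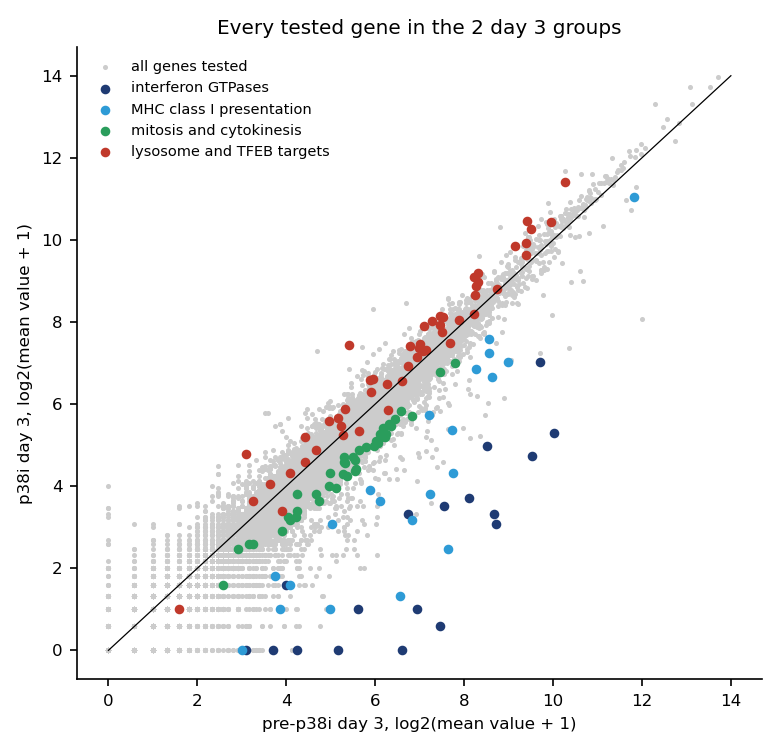
Mean level of each of the 13230 tested genes in pre-p38i (x axis) and p38i (y axis) on day 3, both as log2(mean value + 1), with the line of equality and 4 gene lists in colour. Interferon-inducible GTPases and MHC class I genes lie farthest below the line, mitotic genes lie in a narrow band below it, and most lysosomal genes lie above it.

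The widest differences were those of interferon-inducible genes. All 18 tested members of a list of 22 interferon-inducible GTPases were lower in p38i (against 31.4% of all genes), with a median difference of -4.51 beside -0.16 over all genes. The list was also 18 of 18 lower after quantile normalization, and summed over its members it reached 271 and 280 in the p38i libraries against 4828 and 4989 in the pre-p38i libraries. In the DMSO libraries of day 3 the sum was 1669 and 2311, and in untreated MEFs it was 29 and 35. The p38i libraries therefore held more of these transcripts than MEFs, and less than either other group of day 3. In bulk RNA, fewer cells with a transcript and less of it per cell cannot be told apart.

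The promoters of these genes are shown because they carry the sequence at which IRF9 and other IRF factors bind. Windows run from 250 bases before to 50 bases after the RefSeq start (GRCm38.p6), and the core of the interferon response element (GAAA, any 2 bases, and GAAA again) was searched on both strands. They were found in 11 of the 12 tested GTPase genes with a RefSeq window (91.7%), in 12 of 28 antiviral genes (42.9%), in 5 of 17 MHC class I genes (29.4%) and in 3.78% of the windows of all tested genes. A match is a description of the letters and not a bound site. In the windows printed here, 5′ to 3′ on the strand of the gene, capitals mark the matches or their reverse complement.
Igtp, chr11:58199306-58199605, plus strand: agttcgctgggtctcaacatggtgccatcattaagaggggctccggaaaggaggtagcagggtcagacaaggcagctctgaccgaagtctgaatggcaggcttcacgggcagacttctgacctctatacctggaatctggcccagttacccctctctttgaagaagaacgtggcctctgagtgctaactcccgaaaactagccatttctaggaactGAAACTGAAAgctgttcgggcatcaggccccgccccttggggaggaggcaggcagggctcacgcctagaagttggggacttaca
Tgtp2, chr11:49064163-49064462, minus strand: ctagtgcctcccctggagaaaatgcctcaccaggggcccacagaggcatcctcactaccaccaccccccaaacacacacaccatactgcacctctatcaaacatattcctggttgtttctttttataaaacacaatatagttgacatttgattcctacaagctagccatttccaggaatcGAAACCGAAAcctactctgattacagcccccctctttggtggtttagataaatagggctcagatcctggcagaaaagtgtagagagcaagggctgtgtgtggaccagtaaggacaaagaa
Gbp2, chr3:142620413-142620712, plus strand: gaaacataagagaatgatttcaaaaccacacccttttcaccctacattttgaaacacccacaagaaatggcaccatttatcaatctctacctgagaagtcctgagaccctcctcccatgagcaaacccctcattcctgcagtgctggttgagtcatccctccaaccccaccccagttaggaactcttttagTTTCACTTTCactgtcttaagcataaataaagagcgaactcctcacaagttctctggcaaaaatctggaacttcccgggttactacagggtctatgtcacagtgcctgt
Ifit3, chr19:34583279-34583578, plus strand: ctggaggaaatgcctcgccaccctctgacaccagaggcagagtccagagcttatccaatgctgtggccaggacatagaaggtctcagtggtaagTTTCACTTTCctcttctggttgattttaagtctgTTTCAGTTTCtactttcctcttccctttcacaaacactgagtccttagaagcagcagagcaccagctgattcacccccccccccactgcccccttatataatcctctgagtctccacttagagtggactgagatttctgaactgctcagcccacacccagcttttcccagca

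Igtp (Irgm3), an immunity-related GTPase of pathogen vacuoles, was at 7 and 8 in the p38i libraries and at 398 and 437 in the pre-p38i libraries (log2 difference -5.62, SE 0.23, adjusted p = 4.9e-13). Ifi47, another of the family, was at 9 and 9 against 402 and 410 (-5.35, adjusted p = 1.1e-10). In both genes the 2 groups were far apart and the 2 libraries of a group nearly equal. Tgtp2 was at 0 and 1 against 165 and 183, and Tgtp1 at 39 and 37 against 1076 and 1000. These 2 genes are near-identical in sequence, so reads may have been split between them, and both were lower in p38i. Iigp1 was at 1 and 1 in p38i and at 118 and 127 in pre-p38i (-5.95, adjusted p = 7.5e-14).

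Guanylate-binding proteins, the other GTPase family, followed the same direction. Gbp2 was at 21 and 30 in p38i against 734 and 751 in pre-p38i (-4.83, adjusted p = 8.7e-13), and Gbp2b at 12 and 12 against 275 and 275. Gbp3 was at 30 and 31 against 357 and 378. In all, 5 members, among them Gm12250, Gbp4 and Gbp5, were listed at 0 in both p38i libraries, and Gm12250 stood at 87 and 104 in pre-p38i. No fold is given for them. Gbp4 shares near-identical stretches with 6 other listed genes, and Ifi47 and Igtp each share exon bases with a neighbour, so their exact levels are uncertain. The smallest difference in the list was that of Gbp9 (2 and 2 against 14 and 16, -2.41).

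Antigen presentation moved with the GTPases. All 21 tested genes of MHC class I presentation were lower in p38i, with a median of -2.34. Psmb8 and Psmb9, the inducible subunits of the immunoproteasome, were at 4 and 5 against 197 and 198 (-5.18, adjusted p = 8.5e-09) and at 1 and 2 against 83 and 102 (-5.25, adjusted p = 9.4e-13). Nlrc5, the transactivator of MHC class I genes, was at 2 and 0 against 29 and 32. Tap1, a subunit of the peptide transporter, was at 21 and 17 against 212 and 219 (-3.44, adjusted p = 1.1e-11), although it shares exon bases with Psmb9. The heavy chains differed by less: H2-K1 was at 127 and 133 against 519 and 490 (-1.95) and H2-D1 at 194 and 189 against 381 and 366 (-0.96), and these classical genes share near-identical stretches with other MHC genes. B2m, the common light chain, was abundant in every library and still differed (2158 and 2057 against 3716 and 3500, -0.78, adjusted p = 6.3e-11).

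Of 42 tested antiviral genes, 41 were lower and none was higher, with a median of -1.98, and Tor3a (-0.24) was the member not called. Ifit3, which binds foreign RNA with its partners, was at 10 and 8 in p38i against 105 and 135 in pre-p38i (-3.59, adjusted p = 6e-09). Isg15, a ubiquitin-like modifier, was at 65 and 76 against 441 and 504 (-2.73, adjusted p = 3.5e-09), and Zbp1, a sensor of Z-form nucleic acids, at 30 and 40 against 275 and 286. Ifit3 has a near-identical listed copy, Ifit3b, which was lower too. Wars, a tRNA synthetase that interferon induces, was at 166 and 163 against 1353 and 1252 (-2.98, adjusted p = 2.1e-16). Il18bp, an interferon-induced decoy for interleukin 18, was listed at 0 in both p38i libraries and at 34 in both pre-p38i libraries.

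**Figure D2:**
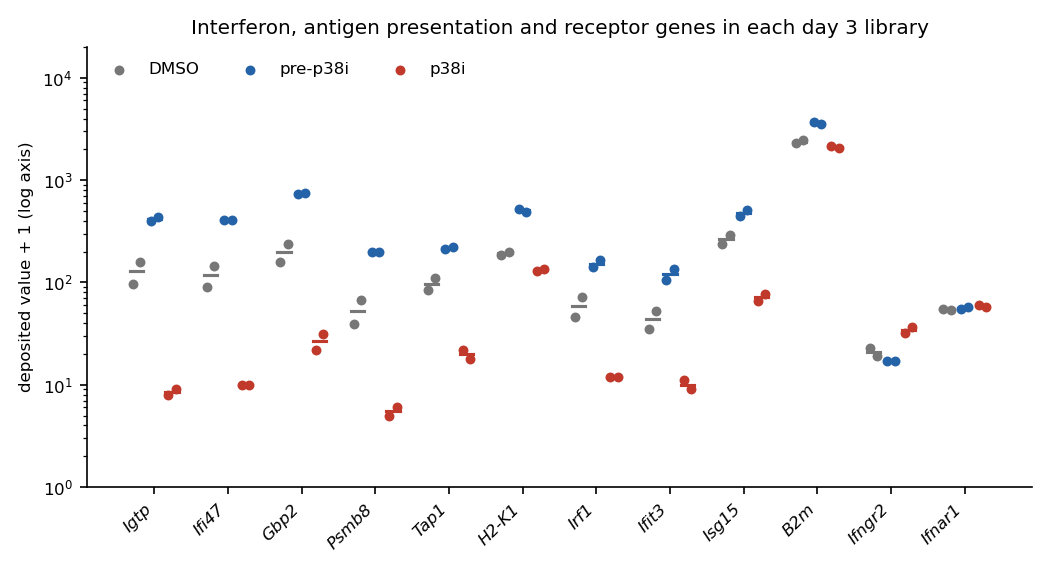
Deposited value + 1 (log axis) of 12 interferon, antigen presentation and receptor genes in each library of day 3. Points are libraries and bars the mean of the 2 libraries of DMSO, pre-p38i and p38i. For the first 10 genes the pre-p38i points are highest and the p38i points lowest, Ifngr2 runs the other way, and Ifnar1 lies between 53 and 59.

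Among 26 tested genes of interferon sensing and signalling, 15 were lower and 2 higher (1 without the first library of either group), with a median of -0.60. As shares, 57.7% were lower and 7.69% higher, against 31.4% and 10.7% of all genes. The transcription factor gene Irf1 stood at 11 and 11 in p38i against 139 and 163 in pre-p38i (-3.66, adjusted p = 2.7e-11). Irf7, Stat2 and Irf9 were lower by less, at -2.12, -1.63 and -1.02. Socs1, the feedback inhibitor of JAK kinases, was at 7 and 6 against 32 and 38. The receptors did not share this pattern. Ifngr1, the binding chain of the interferon-γ receptor, was slightly lower (24 and 24 against 38 and 32, -0.52), whereas Ifngr2, its signalling chain, was one of the 2 that were higher (31 and 36 against 16 and 16, 1.02, adjusted p = 7.4e-08). The other was Ikbke, a kinase upstream of interferon genes (0.41). Ifnar1, a chain of the type I receptor, was at 59 and 57 against 54 and 56 and was not called (adjusted p = 0.272), but was higher after quantile normalization (0.24, adjusted p = 0.00081). Irf8 and Ifnb1 were too low to be tested.

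Of 22 tested cytokine genes, 13 were lower and 2 higher (59.1% and 9.09%, against 31.4% and 10.7% of all genes). After quantile normalization 10 were lower and 4 higher. Cxcl10, an interferon-induced chemokine, was at 0 and 2 in p38i against 17 and 19 in pre-p38i, and Ccl2, a monocyte chemokine, at 169 and 186 against 381 and 458 (-1.23, adjusted p = 8.1e-08). The 2 that were higher were Il1rn, the interleukin 1 receptor antagonist (42 and 48 against 15 and 12, 1.67), and Cxcl12 (26 and 24 against 8 and 13, 1.21). Il6, Tnf and Cxcl9 were among those too low to be tested. Of the 16 macrophage markers 13 were tested, with 2 higher and 4 lower as deposited (15.4% and 30.8%). After quantile normalization 4 were higher and 1 lower. The lower calls of Csf1r, Adgre1 and C1qa were lost there, and also without the second p38i library or without either pre-p38i library. Lyz2 was at 136 and 135 in p38i against 83 and 75, and Marco was listed at 0 in both p38i libraries against 10 and 9. Summed, the markers were higher in p38i (244 to 258) than in pre-p38i (174 to 186), with 441 to 448 in DMSO. Ptprc, the pan-leukocyte marker, was at 0 in both p38i libraries and at 1 and 2 in pre-p38i. Of 10 markers of T and NK cells 8 were at 0 in every library of day 3, and Cd3g was at 0 and 1 against 18 and 17. The part of such cells in the cytokine and interferon values was not tested.

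Cell cycle genes were lower in p38i almost as a block. In the list of mitosis and cytokinesis 41 of 42 tested genes were lower (97.6%, median -0.88), and in that of DNA replication 34 of 36 (94.4%, median -0.73). After quantile normalization 38 and 26 of them were called lower and none higher. The members not called were Cit, Gins2 and Gins3. Aurkb, the kinase of the chromosomal passenger complex, which is required for cytokinesis, was at 18 and 21 in p38i and at 47 and 45 in pre-p38i (-1.20, adjusted p = 1.1e-07). Top2a was at 49 and 53 against 118 and 107 (-1.13, adjusted p = 2.7e-10), Mki67 at 15 and 14 against 34 and 33, and Anln, a scaffold of the cleavage furrow, at 36 and 39 against 79 and 71. The 2 groups did not overlap in any of these, which held for 63.5% of all tested genes. Among replication genes, Mcm7 of the replicative helicase was at 44 and 49 against 99 and 103 (-1.10, adjusted p = 1.3e-09), and Uhrf1, which brings Dnmt1 to replicated DNA, at 31 and 33 against 73 and 70.

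The regulators of G1 divided by sign. Of 23 tested, 13 were lower and 5 higher (56.5% and 21.7%, against 31.4% and 10.7% of all genes). After quantile normalization 10 were lower and 5 higher. Cdk2 was at 27 and 26 in p38i against 48 and 51 in pre-p38i (-0.88). The inhibitors Cdkn2a, which encodes p16 and p19Arf (365 and 397 against 200 and 198, 0.93, adjusted p = 7.7e-10), Cdkn2b (89 and 84 against 56 and 61, 0.56) and Cdkn1c (57 and 51 against 21 and 20, 1.35, adjusted p = 7.1e-06) were higher, as was Ccnd1 (0.31), which encodes cyclin D1. Cdkn1a, the p21 gene, was lower by little (859 and 891 against 1063 and 1061, -0.28). Of 27 genes of Trp53 and its targets, 14 were lower and 2 higher as deposited (51.9% and 7.41%). After quantile normalization 6 were lower and 7 higher, so the list has no firm direction. The count of 14 was 7 without the first and 9 without the second pre-p38i library. Trp53 itself was at 118 and 120 against 170 and 165 (-0.49, adjusted p = 6.7e-06), Fas, a death receptor, at 13 and 11 against 26 and 23, while Pmaip1, which encodes Noxa (21 and 23 against 12 and 12, 0.82), and Ccng1 (0.18) were higher. Mdm2, the ligase that degrades p53, was not called (171 and 165 against 152 and 159, adjusted p = 0.229), but was higher after quantile normalization (0.20, adjusted p = 0.0351).

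**Figure D3:**
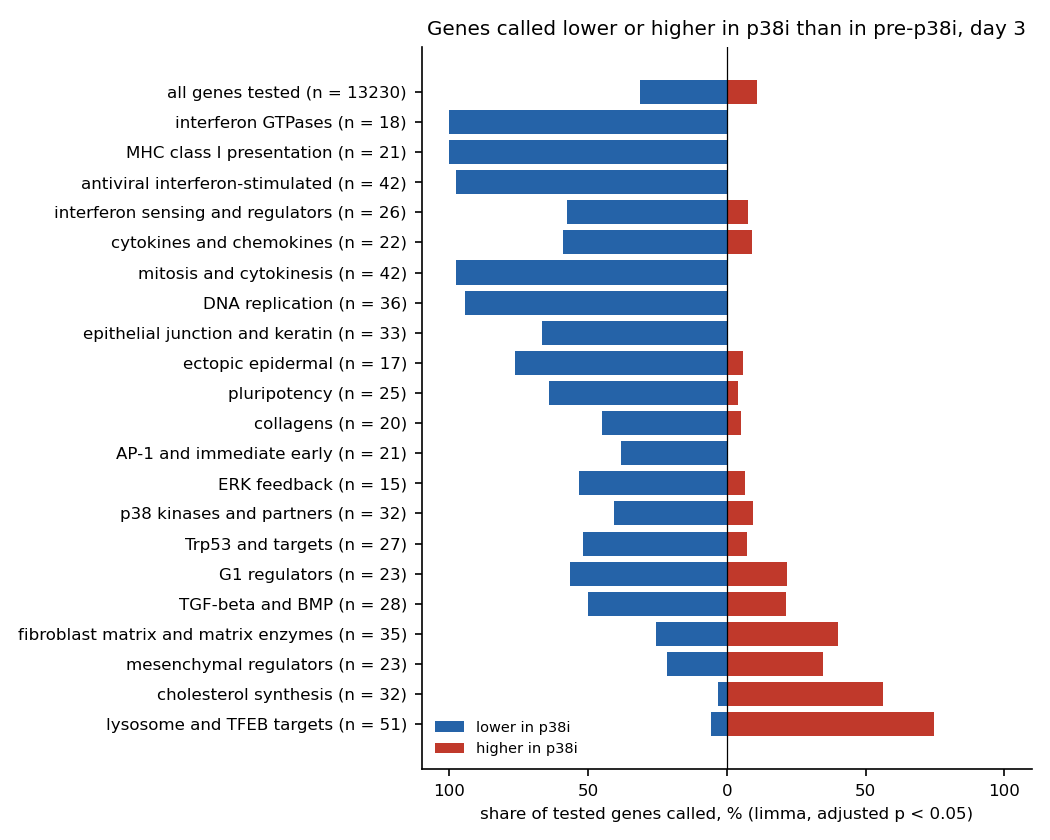
Share of tested genes called lower (left, blue) and higher (right, red) in p38i than in pre-p38i on day 3 (limma, adjusted p under 0.05), for all genes and for 21 lists, with the number tested. All genes stand at 31.4% lower and 10.7% higher, every gene of the GTPase and MHC class I lists is lower, and the lysosomal list reaches 74.5% higher.

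Epithelial genes, which reprogramming cells gain early, were lower in p38i in 22 of 33 tested (66.7%, median -1.0) and higher in none. Krt8, a keratin of simple epithelia, was at 1 and 2 in p38i against 27 and 27 in pre-p38i (-3.51, adjusted p = 3.1e-10). Cdh1, which encodes E-cadherin, was at 14 and 12 against 66 and 65 (-2.25, adjusted p = 9.4e-13), and Epcam at 6 and 5 against 21 and 24 (-1.86). Cldn3, a tight junction protein, was listed at 0 in both p38i libraries and at 3 and 2 in pre-p38i. All 4 genes were listed at 0 in untreated MEFs. Genes of stratified epidermis were lower in 13 of 17 tested and higher in 1 (76.5% and 5.88%, against 31.4% and 10.7% of all genes). Tgm3, a transglutaminase of the cornified envelope, was at 3 and 3 against 54 and 51 (-3.74, adjusted p = 2.3e-13), Krt6a, which has a near-identical copy, at 1 and 1 against 18 and 17, and Trp63, the p63 gene, was at 0 in both p38i libraries and at 5 and 6 in pre-p38i, while Crct1 was higher (13 and 12 against 3 and 5, 1.46).

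Of 39 pluripotency genes 25 were tested, and 16 were lower and 1 higher (64.0% and 4.0%, against 31.4% and 10.7% of all genes). After quantile normalization 11 were lower and 1 higher. Cdh1 and Epcam, already counted as epithelial genes, are among the 16. Zfp42 (Rex1) was at 0 and 1 in p38i against 10 and 13 in pre-p38i (-3.13, adjusted p = 5.3e-08), Gdf3 at 1 and 2 against 9 and 10, and Tfcp2l1, a factor of naive pluripotency, at 6 and 5 against 20 and 18. Nanog, Dppa3 and Dppa5a were listed at 0 in all 4 libraries, and Esrrb was at 1 and 0 in p38i and at 0 in both pre-p38i libraries. Lefty1 was the member called higher (7 and 6 against 2 and 4), a call lost without either p38i library or without the first pre-p38i library. The reprogramming factors were present in both groups at levels that differed. Pou5f1, the Oct4 gene, was at 2523 and 2470 in p38i against 3774 and 3686 in pre-p38i (-0.58, adjusted p = 5.4e-09), Klf4 at 596 and 569 against 862 and 827 (-0.54), and Sox2 at 847 and 807 against 1137 and 1090 (-0.43, adjusted p = 0.0641). Sox2 was called lower after quantile normalization (-0.56, adjusted p = 0.0245), with the replicate block (adjusted p = 0.0373) and in a fit of only these 2 groups (adjusted p = 0.0207). Transcripts of the virus and of the cell's own genes cannot be told apart in these values, and the part of the factor dose in the other differences was not tested.

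Mesenchymal genes were higher in p38i in 8 and lower in 5 of 23 tested (12 and 4 after quantile normalization), and the 8 were 5 without the first p38i library or without either pre-p38i library. As shares, 34.8% were higher and 21.7% lower, against 10.7% and 31.4% of all genes. Vim, the intermediate filament of mesenchymal cells, was at 4150 and 4072 in p38i against 2552 and 2598 in pre-p38i (0.67, adjusted p = 7.1e-09), and Fn1, fibronectin, at 874 and 796 against 530 and 514 (0.68). The transcription factors changed less: Twist1 was at 158 and 150 against 131 and 137 (0.20, adjusted p = 0.015) and Zeb1 at 18 and 18 against 14 and 15 (0.29, adjusted p = 0.0357), and both calls rested on single libraries. Without the first p38i library their adjusted p-values were 0.118 and 0.109, without the first pre-p38i library 0.111 and 0.178, and Zeb1 lost its call without either second library too (0.106 and 0.0614). Prrx1 and Runx1, also mesenchymal factors, were lower (-0.56 and -1.0). Against DMSO of day 3, more of the list was lower than higher in both groups. In p38i 9 were lower and 2 higher (6 and 1 after quantile normalization). In pre-p38i 8 were lower and 2 higher (10 and 2 after quantile normalization).

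The extracellular matrix did not move as 1 group. Collagens were lower in 9 and higher in 1 of 20 tested (4 higher after quantile normalization, none higher without the second p38i or the first pre-p38i library), such as Col6a3 (41 and 34 against 87 and 102, -1.31, adjusted p = 1.6e-07) and Col3a1 (264 and 241 against 361 and 394, -0.58), and the 1 that was higher was Col16a1 (0.61). Of 35 other matrix genes 14 were higher and 9 lower. Spp1, osteopontin, was at 1288 and 1272 in p38i against 474 and 415 in pre-p38i (1.53, adjusted p = 4.8e-11), and Tnc, tenascin C, at 154 and 144 against 58 and 63 (1.29). Among proteases and their inhibitors 4 were higher and 4 lower (7 and 3 after quantile normalization). Mmp3, stromelysin, was at 4 and 8 against 39 and 43 (-2.64, adjusted p = 5.4e-08) and Mmp13, collagenase 3, was at 0 in both p38i libraries against 9 and 10. The inhibitor Timp2 was higher (796 and 773 against 318 and 324, 1.29, adjusted p = 2.3e-13), as was Plat, tissue plasminogen activator (48 and 51 against 20 and 22). In the TGF-β and BMP list 14 of 28 tested genes were lower and 6 higher (8 and 9 after quantile normalization, and 3 higher in a fit of only these 2 groups), and the 14 fell to 7 without the second p38i library and to 9 without the second pre-p38i library. Id1 and Id3, direct targets of BMP signalling, were at 21 and 13 against 51 and 48 and at 7 and 8 against 24 and 25, and Grem1, a secreted BMP antagonist, was at 353 and 351 against 101 and 103 (1.78, adjusted p = 8.1e-15).

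Lysosomal genes had the largest share of higher genes among the lists. Of 51 tested, 38 were higher (74.5%, against 10.7% of all genes) and 3 lower, with a median of 0.41, and 42 were higher after quantile normalization. Ctsd, the protease cathepsin D, was at 2745 and 2690 in p38i against 1227 and 1222 in pre-p38i (1.15, adjusted p = 3.1e-14), and Ctsl, cathepsin L, at 1420 and 1399 against 682 and 688 (1.04). Gpnmb, a glycoprotein of stressed lysosomes, was at 167 and 177 against 43 and 40 (2.03, adjusted p = 8.5e-13), and Rragd, a GTPase that couples lysosomes to mTORC1 and a TFEB target, at 25 and 28 against 8 and 7. Psap, Npc2 and Lamp1 were higher by 0.75, 0.87 and 0.49. The 3 lower genes were Ctsf (-0.29), Scarb2 (-0.20) and the factor Tfe3 (59 and 54 against 74 and 80, -0.44), and Tfeb was not called. The call of Ctsf was lost after quantile normalization (-0.13, adjusted p = 0.309), in a fit of only these 2 groups, and without either p38i or the second pre-p38i library. Ctsd shares exon bases and a near-identical stretch with 1 other listed locus. The CLEAR letters TCACGTGA were found in the windows of 8 of 43 of these genes (18.6%) and in 2.25% of those of all tested genes. Ctsd is one of the 8, and its window is printed with the match in capitals.
Ctsd, chr7:142387778-142388077, minus strand: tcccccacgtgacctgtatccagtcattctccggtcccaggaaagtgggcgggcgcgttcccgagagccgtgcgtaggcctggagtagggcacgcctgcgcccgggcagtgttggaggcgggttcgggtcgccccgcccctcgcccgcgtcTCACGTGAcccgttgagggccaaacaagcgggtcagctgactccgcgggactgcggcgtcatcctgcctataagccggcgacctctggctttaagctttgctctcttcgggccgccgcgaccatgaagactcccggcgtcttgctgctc

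Genes of cholesterol and fatty acid synthesis were higher in 18 and lower in 1 of 32 tested, with a median of 0.36. These are 56.2% and 3.12%, against 10.7% and 31.4% of all genes. After quantile normalization 25 were higher and 1 lower. Dhcr7, the last enzyme of one branch of cholesterol synthesis, was at 103 and 104 in p38i against 52 and 52 in pre-p38i (0.98, adjusted p = 1.6e-09), Nsdhl at 99 and 103 against 59 and 53 (0.84), and Scd1, a fatty acid desaturase, at 570 and 580 against 351 and 320 (0.78). Dhcr7 and Scd1 share near-identical stretches with other listed genes. The one that was lower was Fdft1, which encodes squalene synthase (-0.24), and it was not called without the first pre-p38i library or in a fit of only these 2 groups. Without the first p38i library 2 were lower. The metallothioneins Mt1 and Mt2, which bind zinc and copper, were at 1918 and 1913 against 938 and 946 (1.02, adjusted p = 1.5e-10) and at 1666 and 1603 against 959 and 995 (0.74, adjusted p = 1.1e-09). Libraries of a group differed by far less than the groups did in both genes.

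Genes of the targeted pathway were called, as deposited, at shares near those of all genes. Of 32 tested genes of the p38 kinases and their partners 13 were lower and 3 higher as deposited. These are 40.6% and 9.38%, against 31.4% and 10.7% of all genes. After quantile normalization 6 were lower and 10 higher, so the list has no firm direction. Fewer were called lower without the first library of either group. Mapk14, which encodes p38α, was not called (44 and 43 in p38i against 40 and 41 in pre-p38i, adjusted p = 0.291), but was higher after quantile normalization (0.28, adjusted p = 0.00646). Map2k6, an upstream kinase, was higher (23 and 20 against 12 and 11, 0.85, adjusted p = 3.9e-05), as were Gadd45a (121 and 131 against 72 and 71, 0.81) and Mapk13, which encodes p38δ (0.46, not called without either p38i library or without the first pre-p38i library). Zfp36, an mRNA-decay factor under p38 control, was lower (9 and 9 against 18 and 17, -0.89). The inhibitor acts on kinase activity, which these data do not measure. Of 21 tested immediate early genes 8 were lower (38.1%, against 31.4% of all genes) and none higher. After quantile normalization 6 were lower and 1 higher, and 4 were lower in a fit of only these 2 groups. Among the 8 were Fos (9 and 9 against 21 and 16, -0.95) and Junb (47 and 49 against 81 and 78, -0.72). Of 15 feedback genes of ERK signalling 8 were lower and 1, Ccnd1, higher (53.3% and 6.67%, against 31.4% and 10.7% of all genes). After quantile normalization 7 were lower and 1 higher. Among the lower were Dusp6 (49 and 50 against 82 and 81, -0.71, adjusted p = 1.5e-06) and Etv5 (70 and 61 against 117 and 115, -0.82).

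Besides the genes named so far, the largest rises among the protein-coding genes called included Fabp3, a fatty acid carrier (56 and 52 in p38i against 13 and 8 in pre-p38i, 2.29, adjusted p = 2.5e-08), and Gap43, a membrane protein of growing axons (56 and 52 against 12 and 10, 2.2, adjusted p = 5.5e-10). Il1rl1, the interleukin 33 receptor, was at 10 and 11 against 2 and 3, and Tagln, an actin-binding protein of smooth muscle, at 43 and 47 against 14 and 13. The histone genes Hist1h4h and Hist1h4i were also among the 12 largest rises, and have near-identical copies. Dio3, an imprinted gene that inactivates thyroid hormone, was at 1 and 2 in p38i and at 27 and 28 in pre-p38i (-3.54, adjusted p = 1.2e-09). Tet2, an enzyme that oxidizes methylcytosine, was at 11 and 11 against 28 and 25 (-1.19).

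DMSO libraries of day 3 placed the 2 groups on either side of DMSO-treated cells for several lists. Both comparisons use the same 2 DMSO libraries, so their values are given side by side and are not independent. Against DMSO, 2833 genes were called in p38i (5.22% of tested genes higher, 16.2% lower) and 2729 in pre-p38i (13.8% higher, 6.87% lower). These splits also depend on the scaling, since quantile normalization gave 1407 higher and 1407 lower in p38i and 1322 higher and 1284 lower in pre-p38i. The 18 GTPase genes were all lower in p38i (median -2.86) and all higher in pre-p38i (median 1.74): Igtp was at 96 and 159 in DMSO, between the 2 groups. MHC class I genes behaved likewise (21 lower, median -1.13, and 21 higher, median 1.08). Of the mitotic list 20 genes were lower in p38i (median -0.27, and 11 lower and 1 higher after quantile normalization) and 42 higher in pre-p38i (median 0.62), and of the epithelial list 15 were lower in p38i and 11 higher in pre-p38i. Lysosomal genes lay the other way round, higher in 27 and lower in 4 in p38i (median 0.20) and lower in 28 and higher in 2 in pre-p38i (median -0.24).

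Cholesterol, collagen and matrix genes did not lie on either side of DMSO in this way. Cholesterol genes were higher in 24 in p38i and in 6 in pre-p38i, with none lower (27 higher, and 3 higher and 1 lower, after quantile normalization). Mt1, at 1016 and 1073 in DMSO, was higher in p38i (0.87) and was not called in pre-p38i (-0.15, adjusted p = 0.0947). Collagens were lower than DMSO in both, in 17 and 11 of 20 genes, and the other matrix genes in 21 and 24 of 35. Tnc, one of the matrix genes higher in p38i than in pre-p38i, was at 178 and 182 in DMSO. Its difference from DMSO was smaller in size in p38i (-0.27) than in pre-p38i (-1.56).

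On the untreated course, genes lower in p38i held a larger share of rising genes than the tested genes as a whole. From day 1 to day 5 in DMSO, 27.6% of all tested genes rose and 22.3% fell, although after quantile normalization fewer rose (2860) than fell (3881). Of the 4159 genes lower in p38i than in pre-p38i 46.6% rose and 16.3% fell, and of the 941 lower by at least 2-fold 74.4% rose and 5.74% fell. Of the 1420 genes higher in p38i 13.6% rose and 52.0% fell. The course uses no day 3 library. All 18 GTPase genes rose on this course. Of the cell cycle genes, which were lower in p38i, 40 of 42 mitotic genes fell and none rose in DMSO from day 1 to day 5, and of 36 replication genes 15 fell and 1 rose.

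**Figure D4:**
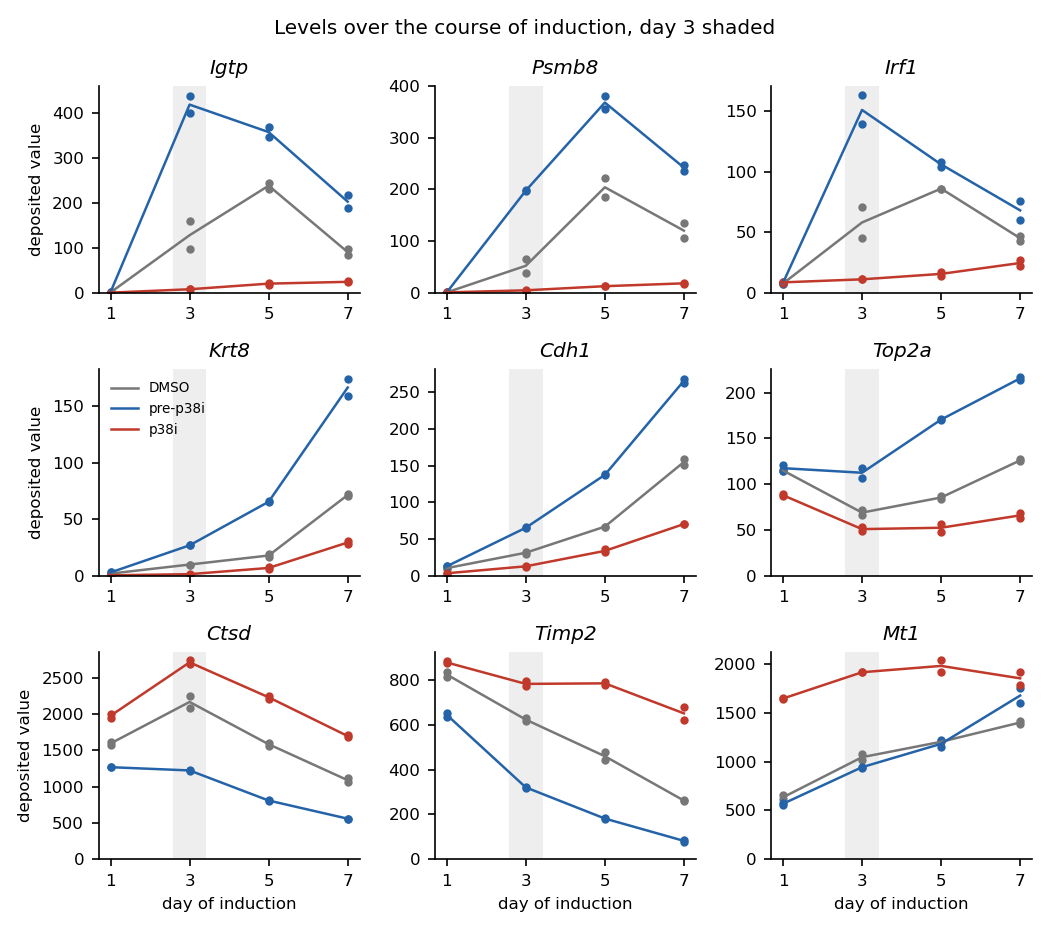
Deposited value of 9 genes on days 1, 3, 5 and 7 of induction in DMSO (grey), pre-p38i (blue) and p38i (red). Points are libraries, lines join group means, and day 3 is shaded. Igtp, Psmb8 and Irf1 are low in all groups on day 1 and apart on day 3, on day 3 Krt8, Cdh1 and Top2a are highest in pre-p38i, and Ctsd, Timp2 and Mt1 are highest in p38i.

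The difference between p38i and pre-p38i was itself compared between days, with the difference of the differences tested. Between day 3 and day 1 it differed for 1930 genes (5.15% of tested genes higher and 9.44% lower on day 3), between day 3 and day 5 for 1554 (4.67% and 7.07%), and between day 3 and day 7 for 4353 (9.67% and 23.2%). After quantile normalization the counts were 1033 higher and 841 lower against day 1, so that split turned, 821 and 946 against day 5, and 2112 and 2510 against day 7. The 18 GTPase genes had median differences of -0.21, -4.51, -3.29 and -1.74 on days 1, 3, 5 and 7. On day 3 the difference was more negative than on day 1 for 18 of them, than on day 5 for 8 and than on day 7 for 18. Igtp, for example, was at 0 and 0 in p38i and at 1 and 1 in pre-p38i on day 1, at 22 and 18 against 345 and 368 on day 5, and at 23 and 25 against 187 and 217 on day 7. All 21 MHC class I genes were more negative on day 3 than on day 1. Between day 3 and day 5, 3 of them were more negative and 6 less negative on day 3.

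Cell cycle and matrix lists were still diverging after day 3. Mitotic genes had medians of -0.26, -0.88, -1.45 and -1.49 on days 1, 3, 5 and 7: the day 3 difference was more negative than that of day 1 in 32 of 42 and less negative than that of day 5 in 31. The matrix list had medians of -0.06, 0.14, 0.63 and 1.44, and in 22 of 35 genes the difference was lower on day 3 than on day 5. Timp2 was at 876 and 885 in p38i against 638 and 654 in pre-p38i on day 1 and at 682 and 623 against 85 and 78 on day 7. Lysosomal genes had positive medians on every day, 0.41, 0.41, 0.65 and 0.69, and already on day 1 37 of 51 were higher in p38i and 2 lower, against 8.25% and 19.9% of all tested genes. Mt1 was at 1639 and 1653 against 579 and 555 on day 1 and at 1919 and 1787 against 1751 and 1602 on day 7. Its difference on day 3 was smaller than that on day 1 (by -0.51, adjusted p = 0.00038) and larger than that on day 7 (by 0.88, adjusted p = 2.1e-07). Epithelial genes had medians of 0.00, -1.0, -1.22 and -1.87, and 9 of 33 were more negative on day 3 than on day 1.

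**Figure D5:**
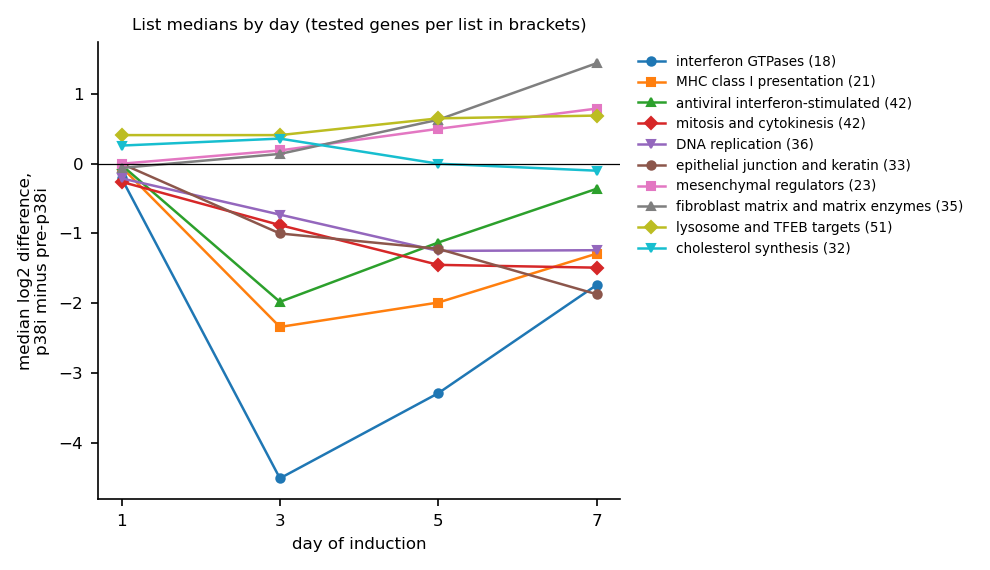
Median log2 difference, p38i minus pre-p38i, over the tested genes of 10 lists on days 1, 3, 5 and 7. The GTPase list is lowest on day 3 (-4.51) and returns toward 0 by day 7 (-1.74), mitotic genes go on to -1.49, and the matrix list rises to 1.44.

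Fibroblast markers were present in all 4 libraries. All 10 were tested, 3 higher and 6 lower in p38i (4 and 4 after quantile normalization), with summed levels of 6121 to 6262 in p38i, 5208 to 5338 in pre-p38i and 12828 to 13634 in untreated MEFs. Of 8 endothelial markers 6 were at 0 in every library of day 3. The list still summed to 40 and 36 in p38i, 61 and 61 in pre-p38i and 2 and 2 in untreated MEFs. Of its 2 tested genes 1 was lower in p38i. Neural markers summed to 260 and 293 in p38i, 354 and 358 in pre-p38i and 119 and 127 in untreated MEFs. Of 3 tested neural markers 2 were lower in p38i and none higher. Markers of skeletal muscle summed to at most 6 and of erythroid cells to at most 3 in these 4 libraries. Before induction, the inhibitor in MEFs was accompanied by no called GTPase gene of 18. The GTPase list summed to 29 and 35 in the untreated MEFs, so near the floor that a fall could hardly have been called. Of 42 mitotic genes 21 were higher and none lower (9.73% of all tested genes were higher and 8.15% lower), and Mt1 was at 520 and 525 against 219 and 258.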

How the data were processed

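RNA-seq of 28 libraries in 14 groups of 2 was used, grouped by the sample titles. The authors deposited 1 whole-number score per gene and library. Totals between 991287 and 992537 are what TPM give when rounded down, so depth is unknown and no counting interval was computed. The submitters' processing notes list Bowtie2 2.2.5, RSEM 1.3.0 and mm10 without roles. Labels and methods differ on the library kit, and its strand is not given in the sources used here. Of the identifiers, 99.6% are in GENCODE M21. Dates had replaced 27 names, so identifiers were used.

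All 14 groups entered a limma 3.58.1 model (R 4.3.3; eBayes with trend, no block) on log2(value + 1), over 13230 genes whose mean reached 1, with Benjamini-Hochberg adjustment and a threshold of 0.05. The fit was tested on simulated data. Alternatives were quantile normalization, a replicate block, no filter, a pseudocount of 0.1, a minimum mean of 5, only the groups compared, a 2-fold minimum and leaving out each library. The members, gene lists and tests were chosen with earlier results of these data known. Named genes are the 12 largest rises and falls among called protein-coding genes that averaged 5 or more and did not overlap between groups, list members by size, genes named in the study, and the 3 most positive and negative differences between days. A few genes were left out of the lists and are not reported here. Near-identical copies (95% over 200 nt) were found with BLAST 2.17.0, and 24 of 195 named genes have one listed on day 3. Exon bases of another listed gene are shared by 38.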

Additional observations from a re-analysis of the deposited data

Results flagged for a closer look

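The difference between p38i and pre-p38i differed between days by the test of the difference itself for 1930 genes between day 3 and day 1, for 1554 between day 3 and day 5 and for 4353 between day 3 and day 7 (limma, adjusted p under 0.05). The values that follow are differences of differences on the log2(value + 1) scale, day 3 minus the other day, for the 3 most positive and the 3 most negative genes of each pair of days. They are no folds where a group was at 0.

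Against day 1, the most negative were Tgtp2 (-6.95), Iigp1 (-5.95) and Psmb9 (-5.25), which were listed at 0 in all 4 libraries of day 1. The most positive were Gap43 (2.59), Apoa2 (2.45) and mt-Co3 (2.63). Gap43 was at 38 and 44 in p38i against 52 and 56 in pre-p38i on day 1 and at 56 and 52 against 12 and 10 on day 3. For mt-Co3 the 2 pre-p38i libraries of day 1 were far apart, at 1404 and 5211, and the adjusted p was 0.044.

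Against day 5, Tac2 (-2.23), Tgtp1 (-2.17) and Ifit3 (-1.97) were the most negative, and Cd74 (3.87), Plac8 (2.54) and Gm2000 (2.53) the most positive. Cd74, the invariant chain of MHC class II, was at 0 and 2 in pre-p38i on day 3 and at 22 and 27 on day 5, and at 0 in p38i on both days. Tgtp1 was at 39 and 37 against 1076 and 1000 on day 3 and at 129 and 119 against 718 and 758 on day 5. Gm2000 shares near-identical sequence with other listed genes.

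Against day 7, Dppa5a (5.53), Ndufa4l2 (5.49) and Slc16a3 (5.19) were the most positive, and each stood at 0 in both pre-p38i libraries on day 3. Dppa5a, a pluripotency gene, was at 50 and 41 in pre-p38i and at 0 in p38i on day 7. Marco (-4.25), Ifit3 (-3.52) and Lbp (-3.49) were the most negative. Lbp, which binds bacterial lipopolysaccharide, was at 1 and 0 in p38i against 6 and 8 in pre-p38i on day 3, and at 27 and 28 against 16 and 11 on day 7, so the groups changed order. Ifit3 was at 40 and 37 against 35 and 47 on day 7.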

How the results depend on the processing

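Of 178 named genes called on day 3, 147 kept call and direction in every alternative. Many of them were named for the size of their change, so this does not stand for all 5579 calls. Over 1917 gene and alternative pairs 1 changed sign, Gins3, which was not called, at 0.07 after quantile normalization (-0.24 as deposited). A fit of only the 2 groups lost 25 calls, among them Cxcl10, Cxcl12, Id1 and Ifngr1, and quantile normalization lost 7. Calls were gained in 11 pairs, by Ifnar1, Mapk14 and Mdm2 after quantile normalization, by Sox2 in 3 fits, and by Esrrb, Ndufa4l2, mt-Co3, Gins2 and Tfeb in 1 each. The count of 5579 genes became 5352 with the replicate block, but the numbers did not pair the libraries: deviations of same-numbered libraries correlated at 0.0134. The block lost 1 named call, that of Cd74. With a 2-fold minimum, 1088 genes remained past both limits (147 higher, 941 lower), with 643 for p38i and 327 for pre-p38i against DMSO, and 587, 258 and 1425 for the differences from days 1, 5 and 7. A fit of only the groups compared called 2772 genes lower, 1044 for p38i and 753 for pre-p38i against DMSO, and 931 between days 3 and 5. Quantile normalization gave 2791 higher and 2404 lower genes. The root mean square difference was 1.012 with a pseudocount of 0.1. The share of lower genes that rose in DMSO was 44.5% with a pseudocount of 0.1 and with a minimum mean of 5, and 52.4% after quantile normalization, and that of higher genes that fell was 49.2% there.

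Leaving out each library in turn gave 4222 to 4492 genes on day 3 (1039 to 1126 higher, 3156 to 3366 lower), 1946 to 2136 for p38i and 1568 to 2050 for pre-p38i against DMSO, and 1366 to 1509, 921 to 1322 and 3556 to 3898 for the differences from days 1, 5 and 7. The lone library of a group was then assumed to vary like the other groups. The counts moved by over 1.5 times without the first pre-p38i library of day 3 (921 between days 3 and 5, 1568 against DMSO), without its second (1776 against DMSO), without the first DMSO library (1698) and without the second pre-p38i library of day 5 (1023). The root mean square difference was 0.676 to 0.701, and the 2 shares were 49.4% to 51.0% and 54.5% to 57.0%. Of 682 list counts under the alternatives, 590 were within 1.5 times of those reported. The cause of these changes was not tested. With 2 libraries a group and unknown depth, low genes are the least certain.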

Other observations

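Other lists of genes gave smaller or mixed differences between p38i and pre-p38i on day 3. Of all tested genes 31.4% were lower and 10.7% higher. Those shares were 34.3% and 22.9% in the ATF4 list, 10.7% and 21.4% in glycolysis, and 12.5% and 31.2% in the contractile list. Of 35 tested genes of the ATF4 stress response 12 were lower and 8 higher (10 and 12 after quantile normalization), and the 8 were 5 without the second p38i library. Ddit3, which encodes the stress factor CHOP, was higher (40 and 51 against 26 and 23, 0.86), although it shares exon bases with Mars. Glycolysis was mostly not called: 6 of 28 genes were higher and 3 lower, and the 6 were 3 without the first p38i library. Of 13 genes encoded in mitochondrial DNA 7 were higher as deposited, 4 without the second pre-p38i library and none after quantile normalization. Their summed values were 60097 and 60699 in p38i against 46810 and 44330 in pre-p38i. Genes of DNA methylation were lower in 7 of 8 tested, among them Dnmt1 (56 and 49 against 83 and 82, -0.65) and Tet3 (5 and 5 against 8 and 9, -0.66).

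Of 24 tested imprinted and glypican genes 10 were lower and 6 higher (41.7% and 25.0%, against 31.4% and 10.7% of all genes). After quantile normalization 8 were lower and 8 higher, and a fit of only these 2 groups called 6 lower. Gpc3, a glypican of embryonic tissue, was at 4 and 2 in p38i against 13 and 14 in pre-p38i (-1.90, adjusted p = 1.1e-06). Contractile genes were higher in 5 and lower in 2 of 16 tested (8 and 2 after quantile normalization, and 2 higher in a fit of only these 2 groups), and the 2 actin-related genes that changed most went opposite ways, Tagln (1.67) and Actg2 (27 and 22 against 90 and 103, -1.94). Of 2 tested proliferin genes Prl2c3, which has near-identical copies, was higher (0.77).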
